A study of Mus musculus with 18 samples.

Results

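The genes followed here are 8 transcription factors tied to the naive and memory states of CD8+ T cells: Tcf7 (which encodes TCF1), Lef1, Id3, Bach2, Foxp1, Bcl6, Eomes and Satb1. They were chosen by symbol, as 8 of the 18522 genes in the count table, and all 8 were among the 14871 genes that passed the filter on low counts. RNA was sequenced from naive CD8+ T cells of wild-type male C57BL/6N mice aged 8 to 12 weeks. The cells came from lymph nodes and spleen, were enriched by removing other cells, and received a T cell receptor and costimulatory signal from anti-CD3 and anti-CD28 antibodies fixed to the plate, together with the cytokines IL-2 and IL-12. The control groups grew in complete medium, and the Asn restriction groups in medium lacking asparagine (Asn), each for 4, 24 or 72 h. The paper gives dialysed serum for its Asn-free medium. It describes a general T cell medium with serum not said to be dialysed, and a control medium with added alanine. Which of these the RNA-seq controls had is not stated outright, and the part of serum in the differences was not tested. Each of the 6 groups had 3 libraries, 18 in all. No library of cells before activation was analysed here, so every course starts at 4 h. Whether the libraries of a group came from separate cultures or animals is not given in the sources used here, so a p-value measures the spread between these libraries, which may be technical. The paper's figure legends describe the RNA-seq data as representative of a single experiment, so the spread between experiments was not measured. The comparison between media asks how the RNA of these factors differed when activation took place without extracellular Asn.

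As background, naive and memory CD8+ T cells hold a set of transcription factors that keep them quiescent, long-lived and able to give rise to new effector cells. TCF1 and LEF1 are related DNA-binding proteins of the Wnt pathway and sustain memory and stem-like cells. ID3 holds back E proteins, BACH2 competes with AP-1 factors, and BCL6 represses the effector programme, while effector cells usually lose several of these factors. Eomesodermin (Eomes) is a T-box factor with roles in both memory and cytotoxic cells.

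The libraries held 11417641 to 21872456 gene counts each, with a median of 17975326. Levels are CPM, counts scaled to the library's size with TMM factors, and values with ± are mean and SD with n = 3. The words rose and fell are kept for genes for which edgeR's quasi-likelihood test gave a Benjamini-Hochberg adjusted p under 0.05 over all 14871 genes. For the lists of related genes they refer to Asn restriction against control at the time named, not to a course over time. Log2 fold changes are followed by their standard error (SE). Asns, the gene of asparagine synthetase, which cells induce when amino acids run short, was read as a check of the medium labels. It was 2.66-fold, 1.63-fold and 1.5-fold higher under Asn restriction at 4, 24 and 72 h. The summed CPM of 9 CD8 T cell markers was 1939 to 2736 in the 18 libraries, against 5.85 to 10.7 for 8 B cell markers and 2.7 to 9.54 for 10 myeloid and dendritic cell markers. The sum of 4 CD4 and regulatory T cell markers ran from 7.02 to 129.6 CPM, with Zbtb7b at 119 CPM in control and 60.1 CPM under Asn restriction at 72 h, while Cd4 and Foxp3 had group means of at most 1.91 CPM; the part of such cells in the results was not tested. Cd8a itself was lower under Asn restriction at 4 h (265 CPM in control and 95.4 CPM under Asn restriction) and at 72 h (121 CPM and 77.7 CPM). In bulk RNA, fewer cells that express a gene and less of its RNA per cell cannot be told apart. Control replicate 2 at 72 h stood apart from its group, with the fewest counts and 0.439% mitochondrial counts against 0.741 to 0.989% in the other libraries. Results that move without it are given with both values. ERCC spike-ins, synthetic RNAs added to the samples, gave an alternative scale, on which fewer genes were called. The ERCC share of counts varied within groups, from 0.8291 to 1.497% under Asn restriction at 72 h and from 1.42 to 1.613% at 4 h. The value of 0.8291% was that of restricted replicate 2 at 72 h. Replicates 1 and 3 of that group had 1.261 and 1.497%, and control at 72 h had 1.376 to 1.724%. The part of restricted replicate 2 in the ERCC-scaled values at 72 h was not tested. A call lost on this scale need not mean a smaller difference. Foxp1 at 4 h lost its call with a log2 difference of -0.45, against -0.31 with TMM. The part of this spread in the lost calls was not tested.

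The genes lie on 7 chromosomes (GRCm38, GENCODE M21): Tcf7 at chr11:52252371-52283014, Lef1 at chr3:131110471-131224356, Id3 at chr4:136143497-136145755, Bach2 at chr4:32238804-32586108, Foxp1 at chr6:98925338-99522721, Bcl6 at chr16:23965052-23988852, Eomes at chr9:118478212-118486132 and Satb1 at chr17:51736187-51833290. Lef1, Id3, Bach2 and Eomes are on the plus strand and the others on the minus strand. The table also counts 15 annotated genes that overlap a factor's gene, and whether reads were assigned by strand is not given in the sources used here. The summed counts of these overlapping genes were 3.95 to 15.5% of the Satb1 counts and 0.265 to 12.1% of the Eomes counts per library. For Tcf7, Lef1, Bach2 and Foxp1 the highest such share was 7.11%, and Id3 and Bcl6 had no overlapping gene in the table.

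RefSeq (GRCm38.p6) lists 19 promoter windows for the 8 factors, each of 300 bases from 250 before to 50 after an annotated start site. They were searched on both strands for sites these proteins and their partners can bind: CTTTGAA or CTTTGAT (TCF/LEF), GTAAACA (forkhead, the family of FOXP1) and TGANTCA (AP-1 and BACH). Of the 19 windows, 1 held a TCF/LEF match, 1 a forkhead match and none an AP-1 and BACH match. The shares among all 32851 RefSeq mouse promoter windows were 8.65%, 3.65% and 7.81%. The windows with a match are shown because in each the matched letters belong to the other gene's protein family, with the match in capitals. A match describes the letters only, and no binding was measured. The first is 1 of 2 Tcf7 windows (chr11:52282546-52282845, minus strand), in which GTAAACA begins 1 base after the start site. The second is 1 of 3 Foxp1 windows (chr6:99266466-99266765, minus strand), in which CTTTGAA stands on the opposite strand.
Tcf7: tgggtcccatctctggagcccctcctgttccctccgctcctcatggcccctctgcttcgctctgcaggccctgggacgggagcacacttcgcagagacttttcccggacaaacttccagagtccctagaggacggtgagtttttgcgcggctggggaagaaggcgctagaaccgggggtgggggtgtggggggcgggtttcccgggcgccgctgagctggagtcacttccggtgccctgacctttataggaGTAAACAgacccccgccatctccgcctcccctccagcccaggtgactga
Foxp1: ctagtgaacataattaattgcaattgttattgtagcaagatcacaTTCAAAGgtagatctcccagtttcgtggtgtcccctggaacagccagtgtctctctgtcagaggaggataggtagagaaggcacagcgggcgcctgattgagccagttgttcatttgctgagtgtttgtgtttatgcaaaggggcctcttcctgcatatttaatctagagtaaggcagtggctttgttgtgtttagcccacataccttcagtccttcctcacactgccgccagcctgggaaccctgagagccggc

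With levels divided by the length of the exons, Satb1, a chromatin organiser of the T lineage, was the most abundant of the 8 in every group, at 97.1 to 416 CPM per kb. Bcl6 was the least abundant in every group, at 0.480 to 7.95 CPM per kb. The range from the highest to the lowest group mean was 16.6-fold for Bcl6, 12.2-fold for Eomes and 8.32-fold for Bach2. It was 5.89-fold for Id3, 4.38-fold for Foxp1, 4.28-fold for Satb1, 3.48-fold for Lef1 and 2.84-fold for Tcf7. The factors did not follow 1 course, as the plot of every library shows.

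**Figure D1:**
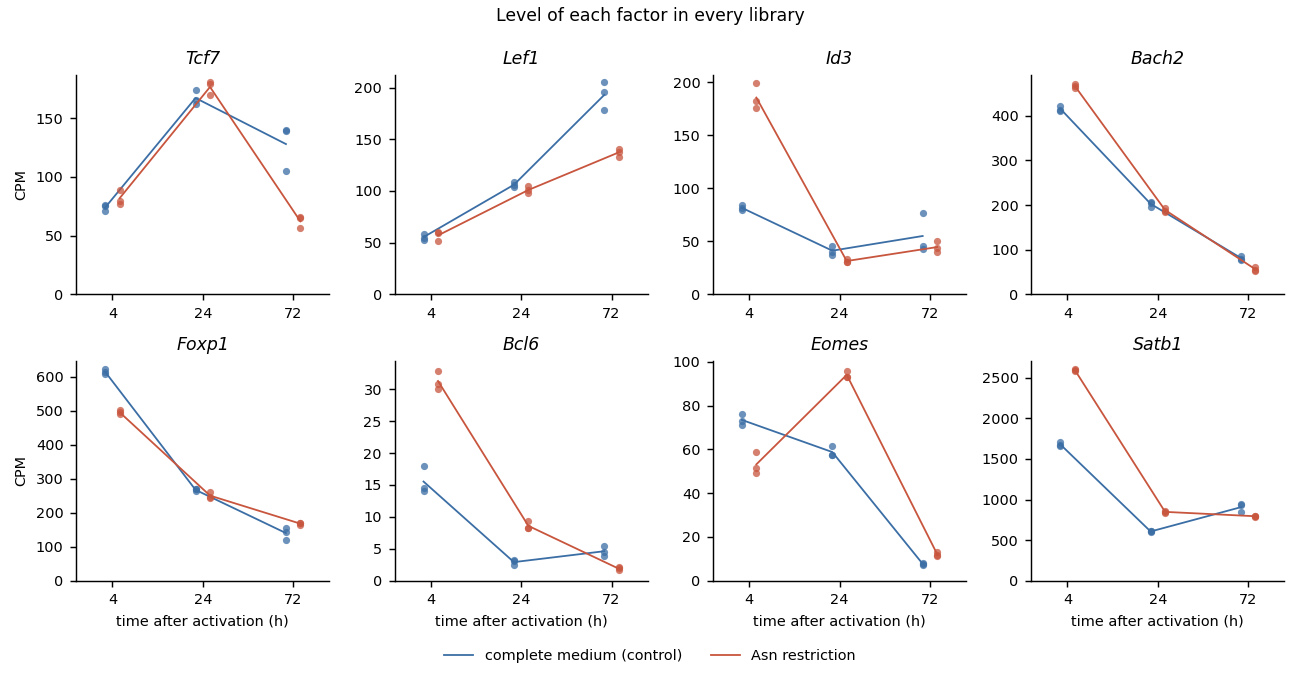
Level of each factor in CPM after TMM scaling (y axis, from 0, a scale for each gene) at 4, 24 and 72 h after activation (x axis, evenly spaced). Each point is 1 of 18 libraries, 3 per group, and lines join the group means of control (blue) and Asn restriction (red). Tcf7 and Lef1 part between the media at 72 h, Id3, Bcl6 and Satb1 are higher under Asn restriction at 4 h, and Eomes crosses between 4 and 24 h.

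Tcf7 encodes TCF1, a factor that memory and stem-like CD8+ T cells need. At 4 h its level was 70.9, 75.2 and 75.9 CPM in control and 79.8, 89.2 and 76.6 CPM under Asn restriction. At 24 h it was 174, 162 and 165 CPM in control and 170, 179 and 181 CPM under Asn restriction. The media overlapped at 24 h, and at 4 h the groups did not overlap but lay close together. At 72 h it was 140, 105 and 139 CPM in control and 65.6, 56.3 and 64.8 CPM under Asn restriction, so every restricted library was below every control library. Tcf7 was thus 2.07-fold lower at 72 h (128 ± 20.1 and 62.2 ± 5.15 CPM, log2 fold change -1.05, SE 0.08, adjusted p = 1.42e-12), while the log2 differences at 4 h (0.15, 95% interval -0.02 to 0.31, adjusted p = 0.143) and 24 h (0.08, interval -0.07 to 0.23, adjusted p = 0.381) missed the threshold, although that at 24 h passed with library totals in place of TMM (0.19, adjusted p = 0.0343). Without control replicate 2 at 72 h, the difference at 4 h passed it (log2 fold change 0.15, adjusted p = 0.0236) and that at 72 h was -1.16. From 24 to 72 h, Tcf7 fell 1.30-fold in control and 2.84-fold under Asn restriction, and the effect of the medium changed by -1.12 on the log2 scale (SE 0.11, adjusted p = 1.72e-10). In the order of its 6 group levels, the 2 groups at 24 h did not differ, nor did those at 4 h, and Asn restriction at 72 h was the lowest, below control at 4 h (adjusted p = 0.00635).

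Lef1, the close relative of Tcf7, took another course and rose at each step in both media. In control it was 52.8, 58.4 and 55.0 CPM at 4 h, 109, 106 and 104 CPM at 24 h, and 205, 179 and 195 CPM at 72 h. Under Asn restriction it was 60.3, 51.9 and 59.0 CPM, then 97.6, 105 and 101 CPM, then 138, 141 and 133 CPM. The media overlapped at 4 and 24 h and were apart at 72 h, where all 3 restricted libraries were lower. Lef1 was 1.41-fold lower under Asn restriction at 72 h (193 ± 13.3 and 137 ± 3.72 CPM, log2 fold change -0.49, SE 0.06, adjusted p = 1.41e-08). The log2 differences were 0.05 at 4 h (interval -0.08 to 0.18) and -0.07 at 24 h (interval -0.19 to 0.05). The rise from 24 to 72 h was 1.82-fold in control and 1.36-fold under Asn restriction, a difference of -0.42 on the log2 scale (SE 0.08, adjusted p = 5.23e-05), which ERCC scaling did not call (-0.30, adjusted p = 0.421). So between 24 and 72 h Lef1 rose in both media while Tcf7 fell in both.

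Id3 encodes an inhibitor of E proteins that memory precursor cells keep. At 4 h it was 84.1, 81.2 and 79.6 CPM in control and 182, 199 and 176 CPM under Asn restriction, with no overlap. That is a 2.27-fold higher level (81.6 ± 2.27 and 186 ± 11.9 CPM, log2 fold change 1.19, SE 0.12, adjusted p = 5.37e-10). At 24 h the direction was the opposite, with 46.0, 37.6 and 40.2 CPM in control and 30.8, 30.7 and 33 CPM under Asn restriction. Id3 was lower by the test (41.3 ± 4.31 and 31.5 ± 1.34 CPM, log2 fold change -0.39, SE 0.13, adjusted p = 0.0117); it missed the threshold without control replicate 1 at 24 h (adjusted p = 0.0829), in DESeq2's Wald test (0.0568), with library totals (-0.28, adjusted p = 0.0654) and with ERCC scaling (-0.15, adjusted p = 0.606). At 72 h control replicate 2 stood above all others, at 77.1 CPM against 45.4 and 42.6 CPM in the other control libraries and 43.4, 39.8 and 50.7 CPM under Asn restriction. The media overlapped there, and the log2 difference was -0.28 (adjusted p = 0.0735), or 0.03 (adjusted p = 0.836) without that library, and it passed with library totals (-0.39, adjusted p = 0.0124). From 4 to 24 h Id3 fell 1.98-fold in control and 5.89-fold under Asn restriction, and the effect of the medium changed by -1.58 (SE 0.17, adjusted p = 1.53e-08). From 24 to 72 h it rose under Asn restriction (log2 fold change 0.51, adjusted p = 0.00108) and in control (0.39, adjusted p = 0.00715), but the control rise was 0.09 (adjusted p = 0.329) without control replicate 2 and was not called with ERCC scaling (adjusted p = 0.114). The change of the medium effect over that step, 0.11 (adjusted p = 0.625), became 0.41 (adjusted p = 0.0016) without it.

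Bach2 encodes a repressor that competes with AP-1 factors and restrains effector differentiation. It fell at each step in both media, with control libraries at 414, 412 and 422 CPM at 4 h, 205, 196 and 208 CPM at 24 h, and 76.8, 80.4 and 86.9 CPM at 72 h. Under Asn restriction it was 471, 468 and 462 CPM, then 194, 188 and 185 CPM, then 54.4, 61.8 and 52.1 CPM. The libraries of the media did not overlap at any time, and the restricted ones were above control at 4 h and below it at 24 and 72 h. The difference was small at 4 h (1.12-fold, log2 fold change 0.17, SE 0.05, adjusted p = 0.0059), missed the threshold at 24 h (-0.10, interval -0.21 to 0.00, adjusted p = 0.0871) and was a 1.45-fold lower level at 72 h (-0.54, SE 0.06, adjusted p = 2.43e-09). The difference at 4 h did not pass with library totals in place of TMM (0.05, adjusted p = 0.457) or with ERCC scaling (0.03, adjusted p = 0.95). That at 24 h passed in DESeq2's Wald test (-0.12, adjusted p = 0.0375). The effect of the medium changed by -0.27 from 4 to 24 h (adjusted p = 0.00313), where ERCC scaling turned the sign (0.11), and by -0.43 from 24 to 72 h (adjusted p = 1.29e-05), which ERCC scaling did not call (-0.31, adjusted p = 0.404).

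Foxp1, a forkhead factor that keeps naive T cells quiescent, also fell at each step. In control it was 608, 613 and 622 CPM at 4 h, 264, 269 and 269 CPM at 24 h, and 155, 121 and 144 CPM at 72 h. Under Asn restriction it was 490, 495 and 501 CPM, then 260, 247 and 244 CPM, then 165, 170 and 169 CPM. The groups did not overlap at any time, and the restricted libraries were lower at 4 and 24 h and higher at 72 h. Foxp1 was 1.24-fold lower at 4 h (log2 fold change -0.31, SE 0.05, adjusted p = 1.04e-05) and 1.19-fold higher at 72 h (0.26, SE 0.06, adjusted p = 0.000289), or 0.17 on the log2 scale (adjusted p = 0.00176) without control replicate 2. At 24 h the log2 difference was -0.09 (adjusted p = 0.14), and it passed without that library (-0.09, adjusted p = 0.0449). With ERCC scaling the difference at 4 h was not called (-0.45, adjusted p = 0.0832). The medium effect rose by 0.22 from 4 to 24 h (adjusted p = 0.0233) and by 0.35 from 24 to 72 h (adjusted p = 0.000274). The earlier change did not pass with ERCC scaling (0.59, adjusted p = 0.112). It was also lost without control replicate 3 (adjusted p = 0.0591) or restricted replicate 1 (0.0545) at 4 h. The same held without replicate 1 of control (0.0553) or of Asn restriction (0.0739) at 24 h. The later change did not pass with library totals (0.13, adjusted p = 0.155) or ERCC scaling (0.47, adjusted p = 0.177). Bach2 and Foxp1, which both fell with time, therefore differed between the media in opposite directions at 4 h and at 72 h.

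Bcl6 encodes a repressor of the effector programme and was weakly expressed. At 4 h it was 14.6, 14.1 and 18 CPM in control and 32.9, 30.1 and 30.9 CPM under Asn restriction. At 24 h it was 2.51, 3.05 and 3.19 CPM in control and 8.23, 8.24 and 9.31 CPM under Asn restriction. The restricted libraries were higher than all control libraries at both times, by 2.0-fold at 4 h (log2 fold change 1.0, SE 0.12, adjusted p = 2.07e-08) and 2.95-fold at 24 h (1.56, SE 0.15, adjusted p = 4.29e-10). At 72 h the order was turned, with 4.51, 3.84 and 5.52 CPM in control and 1.97, 2.08 and 1.61 CPM under Asn restriction. Bcl6 was then 2.49-fold lower (log2 fold change -1.32, SE 0.19, adjusted p = 8.42e-07). Between 24 and 72 h it rose 1.60-fold in control (not called with ERCC scaling, adjusted p = 0.0512) and fell 4.57-fold under Asn restriction. The effect of the medium changed by -2.87 on the log2 scale (SE 0.25, adjusted p = 1.30e-11), and 3.88% of the genes tested had a larger change of that effect. The earlier change, 0.56 from 4 to 24 h, passed the threshold (adjusted p = 0.0246). It did not pass without control replicate 3 at 4 h (0.43, adjusted p = 0.107) or control replicate 1 at 24 h (adjusted p = 0.0970). Nor did it pass without restricted replicate 2 at 4 h (adjusted p = 0.0557) or restricted replicate 3 at 24 h (adjusted p = 0.0689). All 6 group levels of Bcl6 differed from their neighbours in order.

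Eomes encodes a T-box factor of memory and cytotoxic cells, and it too changed direction. At 4 h it was 76.4, 73.1 and 71.0 CPM in control and 51.7, 58.8 and 49.1 CPM under Asn restriction, which was lower in every library. At 24 h it was 61.4, 57.6 and 57.5 CPM in control and 93.0, 96.1 and 93.3 CPM under Asn restriction, which was higher in every library. At 72 h it was 7.74, 8.27 and 7.14 CPM in control and 12.0, 13.3 and 11.4 CPM under Asn restriction, again higher in every library. Eomes was 1.38-fold lower at 4 h (log2 fold change -0.47, SE 0.07, adjusted p = 1.21e-06), 1.60-fold higher at 24 h (0.68, SE 0.07, adjusted p = 3.98e-10) and 1.59-fold higher at 72 h (0.67, SE 0.10, adjusted p = 2.50e-06). From 4 to 24 h it fell by 0.32 on the log2 scale in control (-0.16, adjusted p = 0.513, with ERCC scaling) and rose by 0.82 under Asn restriction, a change of the medium effect of 1.14 (SE 0.10, adjusted p = 4.92e-11). From 24 to 72 h it fell 7.66-fold in control and 7.70-fold under Asn restriction, and the change of the medium effect was -0.01 (95% interval -0.28 to 0.26). NK cells also express Eomes, and 6 NK and gamma-delta T cell markers were summed. At 4 h the sum was 6.24 to 9.57 CPM in control and 9.33 to 10.9 CPM under Asn restriction. At 24 h it was 8.98 to 11.19 CPM in control and 11.24 to 12.5 CPM under Asn restriction. At 72 h it was 1.68 to 2.17 CPM and 1.36 to 2.31 CPM, with Ncr1 at 0 in every library. Their part in the Eomes values was not tested.

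Satb1 ranked between 33 and 211 by CPM among the genes tested in the 6 groups, and its replicates lay close together. At 4 h it was 1669, 1657 and 1713 CPM in control and 2608, 2585 and 2599 CPM under Asn restriction. At 24 h it was 608, 606 and 605 CPM in control and 862, 852 and 830 CPM under Asn restriction. The restricted libraries were above all control libraries at both times, by 1.55-fold (log2 fold change 0.63, SE 0.04, adjusted p = 1.08e-14) and 1.40-fold (0.48, SE 0.04, adjusted p = 4.82e-12), the first of which ERCC scaling put just outside the threshold (0.49, adjusted p = 0.05002). At 72 h it was 940, 850 and 928 CPM in control and 788, 800 and 795 CPM under Asn restriction. Satb1 was 1.14-fold lower there (log2 fold change -0.19, SE 0.04, adjusted p = 0.00012), but scaling by the ERCC spike-ins gave 0.15 (adjusted p = 0.573). Over the last step Satb1 rose 1.5-fold in control. Under Asn restriction it was 1.07-fold lower at 72 h (adjusted p = 0.0307), a call that was lost when any of 4 restricted libraries was left out. That call was also lost with DESeq2's size factors (adjusted p = 0.0788), without the filter on low counts (0.0673) and with ERCC scaling (0.781). The medium effect changed by -0.67 over this step (SE 0.06, adjusted p = 4.30e-12; with ERCC scaling -0.56, adjusted p = 0.0922) and by -0.15 from 4 to 24 h (adjusted p = 0.0368), where library totals without TMM gave 0.08 and ERCC scaling 0.23.

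Across the 8 factors, 6 differed between the media at 4 h, with Id3, Bcl6, Satb1 and Bach2 higher and Eomes and Foxp1 lower; among all genes 45.6% were called, 23.6% higher and 22% lower. At 24 h 4 differed, with Bcl6, Eomes and Satb1 higher and Id3 lower, against 55.5% of all genes, 27.5% higher and 28% lower. At 72 h 7 differed, with Eomes and Foxp1 higher and Bcl6, Tcf7, Bach2, Lef1 and Satb1 lower, against 49.2% of all genes, 25.4% higher and 23.8% lower. The libraries of the media did not overlap for 7, 6 and 7 of the 8 factors at the 3 times, against 54.7%, 61.3% and 53.6% of all genes. The median log2 fold change of the 8 was 0.16, 0.00 and -0.39, beside 0.02, 0.02 and -0.01 over all genes tested. With the ERCC spike-ins as the scale, 3 of the 8 were called at 4 h, 3 at 24 h and 4 at 72 h, against 20.6%, 32.9% and 33.6% of all genes. That scale moved the median of all genes by -0.13, 0.23 and 0.32 at these times, and at 72 h Tcf7 (-0.72, adjusted p = 0.00174) and Bcl6 (-0.98, adjusted p = 0.00281) stayed lower while Lef1 (-0.14) and Bach2 (-0.18) no longer passed.

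**Figure D2:**
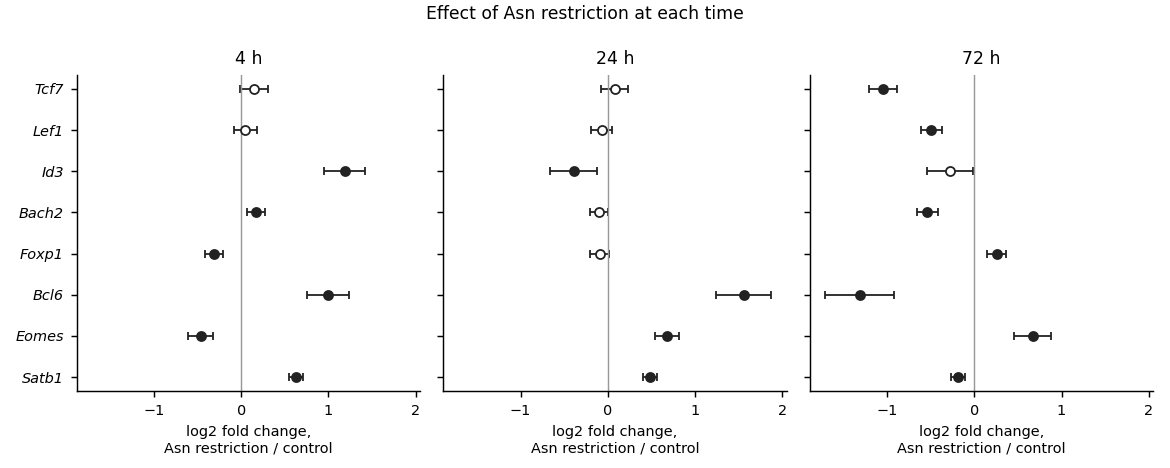
Log2 fold change of Asn restriction against control (x axis) for each factor (y axis) at 4, 24 and 72 h, with its 95% interval; filled points passed an adjusted p of 0.05 and open points did not. Bcl6 goes from 1.0 and 1.56 to -1.32 and Tcf7 from 0.15 and 0.08 to -1.05.

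**Figure D3:**
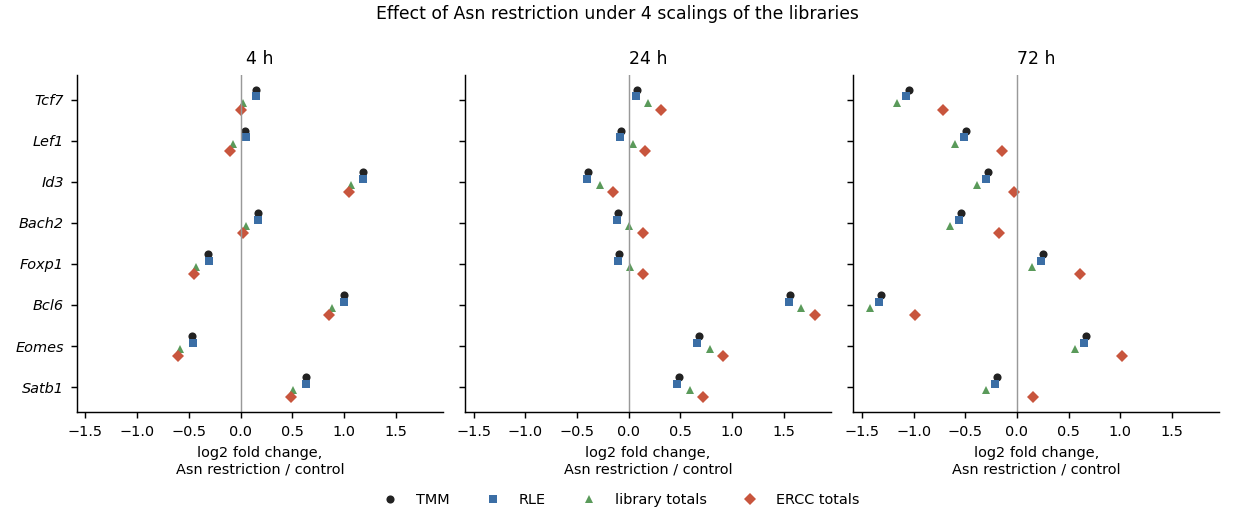
The same log2 fold changes (x axis) for each factor (y axis) under 4 scalings of the libraries: TMM (circles), DESeq2's size factors (RLE, squares), library totals (triangles) and ERCC spike-in totals (diamonds). At 72 h ERCC scaling moves every factor up, Satb1 from -0.19 to 0.15, while Tcf7 and Bcl6 stay below -0.7.

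Over time, all 8 factors changed in each step in each medium. In control, Tcf7 and Lef1 rose and the other 6 fell from 4 to 24 h, where 69.7% of all genes changed, 34.9% upwards and 34.7% downwards. Under Asn restriction Tcf7, Lef1 and Eomes rose and 5 fell in that step, where 65.8% of all genes changed, 34.9% upwards and 30.9% downwards. In control, Lef1, Id3, Bcl6 and Satb1 rose and 4 fell from 24 to 72 h, where 70.8% of all genes changed, 35.7% upwards and 35.1% downwards. Under Asn restriction Lef1 and Id3 rose and 6 fell, where 70.7% of all genes changed, 35.3% upwards and 35.5% downwards. The comparisons of a step and of the media share libraries, so these counts are not independent. The effect of the medium changed for 6 of the 8 from 4 to 24 h, 3 upwards and 3 downwards, against 36.3% of all genes, 18.5% upwards and 17.8% downwards. From 24 to 72 h it changed for 6, with Foxp1 upwards and 5 downwards, against 57.2% of all genes, 29.5% upwards and 27.7% downwards.

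Close relatives of the factors did not all move with them. Id2, the Id gene that effector cells favour, was higher under Asn restriction at each time, by 1.49-fold at 4 h (38.6 ± 2.46 and 57.6 ± 3.40 CPM), 1.74-fold at 24 h and 1.89-fold at 72 h (32.8 ± 6.07 and 62.5 ± 1.47 CPM). Bach1, the relative of Bach2 best known for repressing the response to haem and oxidative stress, was 3.48-fold higher at 4 h, 1.96-fold higher at 24 h and 1.16-fold lower at 72 h (adjusted p = 0.0394). Tbx21, which encodes the effector factor T-bet and is a T-box gene like Eomes, was 2.41-fold higher at 4 h (159 ± 4.91 and 381 ± 4.95 CPM), where Eomes was lower. Of 12 relatives listed, 8 were tested. At 4 h 3 were higher and none lower, at 24 h 2 were higher and none lower, and at 72 h 2 were higher and 2 lower. For this list and those below, the shares among all genes were 23.6% higher and 22% lower at 4 h. They were 27.5% and 28% at 24 h, and 25.4% and 23.8% at 72 h. With ERCC scaling, 20.6%, 32.9% and 33.6% of all genes were called in either direction at 4, 24 and 72 h. Foxp4 was lower under Asn restriction at 72 h (97.1 ± 2.26 and 75.2 ± 3.0 CPM, adjusted p = 4.93e-06), where Foxp1 was higher. With ERCC scaling no relative was called lower at 72 h.

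Genes of the TCF1 and LEF1 partners and the Wnt pathway were mostly lower at 72 h: 8 of 12 fell and 1 rose, with a median log2 fold change of -0.44 beside -0.01 over all genes, but none was called lower with ERCC scaling. Axin2, a Wnt target and negative regulator, was 1.81-fold lower (10.4 ± 1.36 and 5.75 ± 1.73 CPM, adjusted p = 0.00012). Aes, a Groucho-family co-regulator, was 1.64-fold lower (353 ± 24.7 and 215 ± 11.6 CPM), and the beta-catenin cofactors Bcl9l and Bcl9 were 1.71-fold and 1.70-fold lower. At 4 h 6 of the 12 fell and 3 rose, with the co-repressor Tle1 2.01-fold lower, and at 24 h 3 fell and 2 rose. Of 8 E proteins and cofactors of ID, BACH2 and BCL6, 4 rose and 2 fell at 4 h, 4 rose and 2 fell at 24 h, and 3 rose and 2 fell at 72 h. Maff, a small MAF partner of BACH proteins, was 2.23-fold higher at 4 h, and the E protein gene Tcf12 was 1.83-fold lower at 72 h.

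Other regulators of naive and quiescent cells were mostly called higher at 4 and 24 h and mostly lower at 72 h, of which ERCC scaling kept a majority only at 24 h. Of 12, 9 rose and 2 fell at 4 h (median log2 fold change 0.37), 7 rose and 2 fell at 24 h (0.39), and 1 rose and 8 fell at 72 h (-0.31); with ERCC scaling 3, 7 and 2 rose and 2, 0 and 1 fell. Klf2, a factor of quiescence and lymph node homing, was 15.2-fold higher at 24 h (2.89 ± 0.495 and 43.8 ± 5.0 CPM). Myb, which supports stem-like CD8+ T cells, was 3.06-fold higher at 24 h and 2.13-fold higher at 72 h, the 1 rise at that time. Foxo1 was 1.45-fold higher at 24 h and 1.42-fold lower at 72 h. Of 12 surface genes of naive and memory cells, 6 rose and 2 fell at 4 h, 7 rose and 3 fell at 24 h, and 2 rose and 6 fell at 72 h. Ccr7, the homing receptor for lymph nodes, was 2.22-fold higher at 24 h (287 ± 3.26 and 636 ± 11.8 CPM), and Il7r, the receptor chain for the survival cytokine IL-7, was 2.06-fold lower at 72 h (129 ± 6.89 and 62.6 ± 5.40 CPM). With ERCC scaling 2, 6 and 2 of these genes rose and 2, 1 and 3 fell.

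Of 12 effector regulators, 6 were higher and 2 lower at 4 h, 5 higher and 4 lower at 24 h, and 5 higher and 3 lower at 72 h (4, 5 and 6 higher and 0, 1 and 0 lower with ERCC scaling). At 24 h the shares among all genes were 27.5% higher and 28% lower, and the median log2 fold change of this list was -0.01. At 72 h Prdm1, which encodes the effector repressor BLIMP1 known for its mutual antagonism with BCL6, was 2.78-fold higher (11.0 ± 0.259 and 30.5 ± 0.891 CPM). Irf4, which scales with the strength of T cell receptor signals, was 2.69-fold higher (186 ± 9.42 and 502 ± 4.15 CPM). Bhlhe40 was 3.70-fold higher at 4 h and 3.27-fold higher at 24 h. The genes named here were chosen by size of change and were all higher. They do not stand for the list, of which 2, 4 and 3 genes were called lower at 4, 24 and 72 h.

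**Figure D4:**
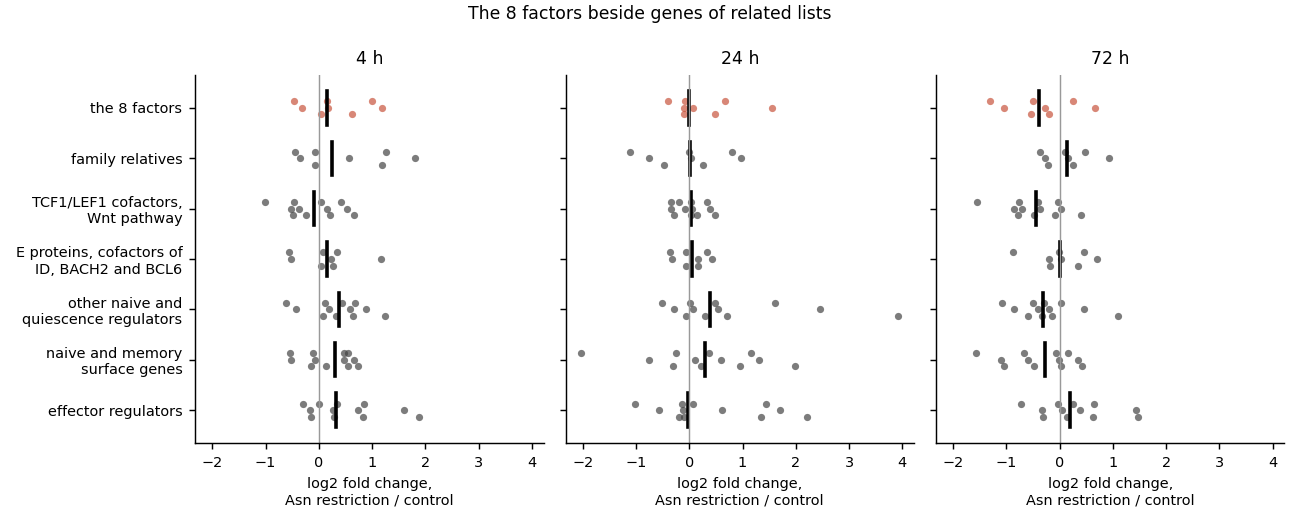
Log2 fold change of Asn restriction against control (x axis) at 4, 24 and 72 h for the 8 factors (red) and the tested genes of 6 related lists (grey), 1 point per gene, with a black line at the median of each row. At 72 h the medians are -0.39 for the 8 factors, -0.44 for the TCF1 and LEF1 partners and 0.20 for the effector regulators.

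Over the 18 libraries, log2 CPM of Lef1 ran opposite to Foxp1 (Pearson r = -0.97) and Bach2 (r = -0.91), while Bach2 and Foxp1 ran together (r = 0.94). Satb1 ran with Id3 and with Bcl6 (r = 0.90 for both), and Tcf7 had r = 0.31 with Lef1 and 0.00 with Bach2. These values describe 18 libraries that share 3 times and 2 media. The genes most like each factor, among the 9466 with a group mean of at least 10 CPM, were Ifit2, Tmie and Sorl1 for Tcf7 (r = 0.93 to 0.95), Thap3, Mapk3 and Rubcn for Lef1 (0.99), and Fam207a, Slc25a20 and Uap1 for Id3 (0.96 to 0.97). They were Rab8b, Bcl2l11 and Ints6 for Bach2 (0.99), Fam210a, Appbp2 and Zdhhc3 for Foxp1 (0.99), and Sik2, Parp8 and Ago3 for Bcl6 (0.98 to 0.99). For Eomes they were Tet3, Acin1 and Ifi209 (0.98 to 0.99), and for Satb1 they were Wnk1, Nr4a1 and Spag9 (0.990 to 0.996). Nr4a1, an immediate target of T cell receptor signalling, was at 1400 CPM in control and 5187 CPM under Asn restriction at 4 h. Sorl1, a sorting receptor, was at 33.8 and 26.0 CPM at 4 h, 97.4 and 81.5 CPM at 24 h and 52.4 and 24.3 CPM at 72 h in control and under Asn restriction.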

How the data were processed

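RNA of activated mouse CD8+ T cells was sequenced on an Illumina instrument. The authors deposited raw counts in whole numbers for 18522 genes and 63 ERCC spike-ins (synthetic RNAs) in 18 libraries; their processing notes name Trim Galore 0.60, STAR 2.7, RSEM 1.31 and the builds hg19 and mm10. The deposited table also holds exon length, normalized counts, group means, and the authors' fold changes and adjusted p-values, of which only the length was used, for CPM per kb. How reads were assigned to strands and when the spike-ins were added are not given in the sources used here.

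Genes were filtered with filterByExpr of edgeR 4.0.16 (R 4.3.3; 14871 kept), scaled by TMM without the spike-ins and entered in a quasi-likelihood model of all 18 libraries with 6 group means (12 residual degrees of freedom, common biological coefficient of variation 0.0607). Media, time steps, their interactions and all pairs of groups were contrasts of this fit, with Benjamini-Hochberg adjustment over all genes tested and a threshold of 0.05. The SE is the log2 fold change divided by the square root of F. The fit was tested on simulated data. No 2 libraries of a group agreed within sampling noise, by a chi-square test of their counts. Replicate numbers did not pair libraries (correlations of same-numbered deviations -0.05 to 0.01 in 9 pairs) and were not used as a block. The depth of 11417641 to 21872456 counts limits only weak genes.

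The 8 factors and the gene lists were chosen with earlier results of these data known. Named with values were the 8 factors; up to 4 genes per list and comparison with the largest change among those called, with no overlap and at least 10 CPM in a group; the 3 genes most correlated with each factor over log2 CPM (prior count 2); and Asns. Id1, Foxp3, Tcf7l1 and Bcl6b were tested but not called between the media, and some relatives were not analysed here. Alternatives were DESeq2's size factors, library totals, ERCC totals, the DESeq2 1.42.0 Wald test, limma-voom (limma 3.58.1), other filters, only the libraries compared, each library left out, and a replicate block.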

Additional observations from a re-analysis of the deposited data

Results flagged for a closer look

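For 8 factors, the effect of Asn restriction was compared between times by an interaction contrast in edgeR, and 12 of 16 such tests passed, 6 for each step, where 36.3% (4 to 24 h) and 57.2% (24 to 72 h) of all genes passed. From 4 to 24 h the log2 effect changed by -1.58 for Id3, -0.27 for Bach2, 0.22 for Foxp1, 0.56 for Bcl6, 1.14 for Eomes and -0.15 for Satb1. From 24 to 72 h it changed by -1.12 for Tcf7, -0.42 for Lef1, -0.43 for Bach2, 0.35 for Foxp1, -2.87 for Bcl6 and -0.67 for Satb1. Bcl6 went from higher to lower under Asn restriction between 24 and 72 h, and Eomes from lower to higher between 4 and 24 h, each beyond the spread between libraries. The smaller changes of Bach2, Foxp1, Bcl6 and Satb1 from 4 to 24 h depended on the scaling or on single libraries. With ERCC scaling the changes of Lef1, Bach2, Foxp1 and Satb1 from 24 to 72 h did not pass, and with library totals that of Foxp1 did not.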

How the results depend on the processing

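Of 1944 results for single factors under an alternative, 1881 kept their side of the threshold, 48 no longer passed, 11 newly passed and 4 reversed. A change of sign between results that both missed the threshold was not counted as a reversal. Such results are among the 1881, as for Id3 at 72 h without control replicate 2 (-0.28 to 0.03). With ERCC totals the reversals were Satb1 at 72 h (0.15) and the effect changes from 4 to 24 h of Satb1 (0.23) and Bach2 (0.11). With library totals the change of the Satb1 effect from 4 to 24 h reversed (0.082). The cause of the reversals was not tested. ERCC scaling moved the median of all genes by 0.32 at 72 h and by 0.23 at 24 h. For the change from 4 to 24 h it moved that median by 0.37. The ERCC share of counts also varied within groups, and its part in the lost calls was not tested. With ERCC totals, 3 factors were called at 4 h, 3 at 24 h and 4 at 72 h. For the change from 4 to 24 h 3 were called, and for the change from 24 to 72 h 2. All genes called were 3064 at 4 h, 4889 at 24 h, 4993 at 72 h, 2774 for the first change and 5099 for the second. With TMM these counts were 6783, 8252, 7313, 5396 and 8507. Leaving out 1 library at a time, 6 to 7 factors were called between the media at 4 h, 3 to 5 at 24 h, 7 to 8 at 72 h, 3 to 6 for the change from 4 to 24 h (3 without control 24 h replicate 1) and 6 to 7 for the change from 24 to 72 h. Shares of all genes with single libraries left out are not given here, so these ranges describe the 8 factors only. With the replicate number as a block, 6, 4 and 7 factors were called at 4, 24 and 72 h, and the block changed no count of factors. Counts of weakly expressed genes such as Bcl6 at 72 h are limited by depth.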
